A study of Mus musculus with 8 samples.

Results

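A group of 10 megakaryocyte and platelet genes was followed in *Zeb1-/-* stem and progenitor cells: *Vwf*, *Pf4*, *Ppbp*, *Gp1ba*, *Gp1bb*, *Gp5*, *Gp9*, *Gp6*, *Treml1* and *Clec1b*. They were picked by gene symbol, and all 10 were found among the 54532 genes of the count table. Of these, 9 had at least 1 read in some library, and 7 passed the filter on low counts. The cells were bone marrow LSK cells (lineage-negative, C-KIT+ SCA-1+) of C57BL/6 mice aged 8 to 12 weeks, and they were sorted into *Zeb1-/-* EpCAM+ and *Zeb1-/-* EpCAM- fractions, with 4 RNA-Seq libraries of each made by SMART-Seq v4 amplification. EpCAM is a cell adhesion protein of epithelia, and the question was how the *Zeb1-/-* LSK cells that carry it differ from those that do not.

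Both fractions came from mice of the genotype *Zeb1 fl/fl; Mx1-Cre+/-* that had received pIpC, 14 days after the last dose. By that design *Zeb1*, a transcriptional repressor, was deleted in both, and no library came from a control mouse. The study saw complete deletion in LSK cells by genomic PCR, and deletion in each fraction was not checked here. Mx1-Cre is driven by an interferon-responsive promoter that is also active outside blood cells. The lineage cocktail of the study held MAC1, GR1, TER119, B220, CD3e, CD4 and CD8a, and no antibody to a megakaryocyte surface protein.

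Megakaryocytes arise from haematopoietic stem cells and progenitors under thrombopoietin, and shed platelets into the blood. Platelets catch von Willebrand factor through the GPIb-IX-V complex, bind collagen through glycoprotein VI and podoplanin through the receptor encoded by *Clec1b*, and release chemokines from alpha granules. Transcription factors of the GATA and ETS families drive this gene programme, and part of it, *Vwf* above all, is also transcribed in a platelet-biased share of stem cells.

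The promoters of 3 genes of the GPIb-IX-V complex and of *Pf4* are shown because *Gp9* was the one member called between the fractions, *Gp5* and *Gp1ba* are its partners in the receptor, *Pf4* varied most between libraries, and factors of the GATA and ETS families are known regulators of such genes. Each is the 250 bases before the RefSeq transcription start on build GRCm38.p6, written 5′ to 3′ on the gene's own strand, with GATA and ETS motifs in capitals.
*Gp9* (chr6:87777820-87778069, + strand): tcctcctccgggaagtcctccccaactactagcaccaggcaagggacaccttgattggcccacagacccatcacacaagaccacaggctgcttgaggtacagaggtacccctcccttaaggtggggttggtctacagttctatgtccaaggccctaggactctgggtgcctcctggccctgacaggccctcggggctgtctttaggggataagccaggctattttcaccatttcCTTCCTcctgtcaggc
*Gp5* (chr16:30310782-30311031, - strand): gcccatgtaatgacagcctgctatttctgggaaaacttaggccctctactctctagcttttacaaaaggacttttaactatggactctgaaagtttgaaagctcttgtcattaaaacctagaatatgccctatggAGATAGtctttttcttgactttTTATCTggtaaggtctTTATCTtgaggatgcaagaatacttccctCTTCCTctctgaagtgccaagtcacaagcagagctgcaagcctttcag
*Gp1ba* (chr11:70638872-70639121, + strand): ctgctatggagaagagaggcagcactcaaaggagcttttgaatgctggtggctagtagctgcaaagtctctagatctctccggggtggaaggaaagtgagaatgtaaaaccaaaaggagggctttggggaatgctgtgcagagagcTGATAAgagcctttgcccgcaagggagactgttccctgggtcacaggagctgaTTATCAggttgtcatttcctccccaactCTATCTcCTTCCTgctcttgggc
*Pf4* (chr5:90772185-90772434, + strand): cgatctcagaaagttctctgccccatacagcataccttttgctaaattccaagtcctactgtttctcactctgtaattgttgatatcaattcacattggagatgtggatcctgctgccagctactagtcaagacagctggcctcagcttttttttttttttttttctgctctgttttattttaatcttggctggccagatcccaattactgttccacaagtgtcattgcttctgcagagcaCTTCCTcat

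The search used the GATA motif AGATAA, its variant AGATAG, the GATA motif TGATAA, its variant TGATAG, the ETS motif AGGAAG and its variant CGGAAG, each on both strands, and none of the matches overlapped another. Promoters of 9 of the 10 genes were matched by symbol. A GATA motif was present in 5 of the 9 and an ETS motif in 5 of the 9, and 3 held both (*Gp1ba*, *Gp1bb* and *Gp5*). Among all 32851 promoters of this length the shares were 26.5% for GATA, 39.2% for ETS and 9.21% for both. *Gp5* and *Gp1ba* each held 3 GATA motifs and 1 ETS motif. *Gp9* and *Pf4* each held 1 ETS motif, 16 and 9 bases before the start, and no GATA motif of these letters. The E-box motif CAGGTG and its variant CAGGTA, which ZEB1 binds, were in none of the 9 promoters, against 25.4% of all promoters. These matches describe the letters of the windows and were not tested as binding sites.

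The libraries held 14114491 to 17073546 counted reads, with overlapping totals in EpCAM+ and EpCAM- cells (p = 0.114 by an exact two-sided permutation test, where 4 libraries against 4 allow no p under 0.0286). *Epcam* was read at 160.5 to 234.1 CPM (counts per 1e+06 counted reads, scaled by TMM) in EpCAM+ libraries and at 1.25 to 8.99 CPM in EpCAM- libraries. *Zeb1* was read at 14.8 to 23.7 CPM in EpCAM+ and at 9.49 to 14.0 CPM in EpCAM- libraries and was called higher in EpCAM+ cells (log2 fold change 0.72, adjusted p = 0.00798), and gene totals do not separate reads of the deleted part from the rest. Of the genes that define the gate, *Kit* was read at 284.6 ± 39.9 CPM in EpCAM+ and at 208.4 ± 38.2 CPM in EpCAM- cells (SD, n = 4), and *Ly6a*, which encodes SCA-1, at 200.7 ± 105.6 and 41.3 ± 29.4 CPM. Both were called higher in EpCAM+ cells (log2 fold changes 0.45 and 2.28, adjusted p = 0.0277 and 0.00658). *Kit* was no longer called when any 1 of EpCAM+ replicates 1 and 3 and EpCAM- replicates 2, 3 and 4 was left out (adjusted p = 0.0517 to 0.0832). Nothing in the labels ties a library to a single mouse, although the study's methods state the group size in mice. Whether both fractions were sorted from the same mice is not stated. Libraries with the same replicate number deviated together, yet the main test and the exact permutation tests treated all libraries as unpaired. Their p-values therefore measure the spread between these samples and leave out any pairing. A fit with the replicate number as a block is among the alternatives given below. The reads came from bulk samples, in which fewer cells of a type and less RNA per cell cannot be told apart.

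Across the 13560 genes tested, 42.6% differed between the fractions at an adjusted p under 0.05 (edgeR quasi-likelihood test, Benjamini-Hochberg adjustment), 21.8% being higher and 20.8% lower in EpCAM+ cells. That balance depended on scaling: 2961 genes were higher and 2818 lower with TMM, against 3642 and 2083 with upper quartile scaling and 3476 and 2066 with library totals. Of the 7 platelet genes tested, 1 was called, *Gp9*, which was higher in EpCAM+ cells. None of the 7 had libraries of the fractions that did not overlap, against 40.1% of all tested genes. The median log2 fold change of the 7 was -0.11, beside 0.02 for all tested genes. In the words used below, a gene rose or fell in EpCAM+ cells compared with EpCAM- cells only where it passed that test.

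**Figure D1:**
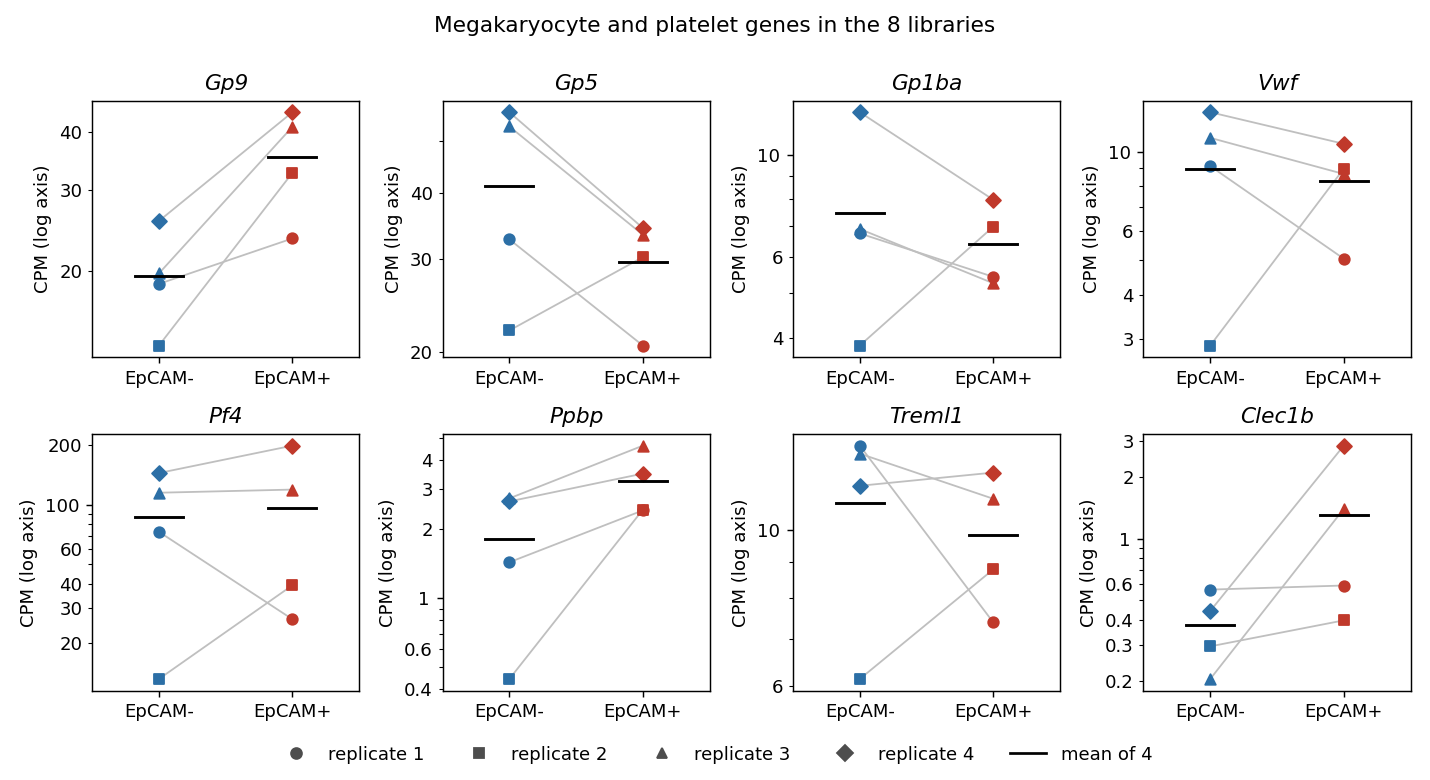
CPM of 8 platelet genes (log axes) in the EpCAM- (blue) and EpCAM+ (red) libraries, with grey lines joining libraries of the same replicate number and black bars at the mean of 4. *Gp9* and *Ppbp* were higher in EpCAM+ cells in 4 of 4 numbered pairs, and the fractions overlapped for every gene shown.

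*Gp9* encodes the glycoprotein IX subunit, which is needed for the von Willebrand factor receptor to reach the surface. It lies at chr6:87778072-87779768 on the + strand. EpCAM+ replicates 1 to 4 held 23.5, 32.6, 41.0 and 44.0 CPM, and EpCAM- replicates 1 to 4 held 18.8, 13.8, 19.8 and 25.7 CPM. The fractions overlapped by 1 pair of libraries, since EpCAM+ replicate 1 lay below EpCAM- replicate 4. The means were 35.3 ± 9.20 and 19.5 ± 4.86 CPM (SD, n = 4), a 1.81-fold difference (95% interval 1.29 to 2.53, log2 fold change 0.85, SE 0.22, edgeR adjusted p = 0.0103). An exact permutation test of this gene alone gave p = 0.0571. The call held in 8 of 8 fits that left out 1 library, with log2 fold changes of 0.71 to 1.01.

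*Gp5* encodes glycoprotein V, a thrombin-cleaved subunit of the same receptor, at chr16:30307685-30310779 on the - strand. EpCAM+ libraries held 20.6, 30.2, 33.3 and 34.3 CPM, and EpCAM- libraries held 32.7, 22.0, 53.3 and 56.7 CPM. EpCAM- replicates 3 and 4 were above every EpCAM+ library, while EpCAM- replicate 2 was below all EpCAM+ libraries but replicate 1. The log2 fold change was -0.47 (SE 0.28, 95% interval -1.09 to 0.14, adjusted p = 0.188). Without EpCAM- replicate 2, *Gp5* was called lower, at -0.69 (adjusted p = 0.0326).

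*Gp1ba* encodes the subunit that carries the binding site for von Willebrand factor, at chr11:70639122-70642036 on the + strand. EpCAM+ libraries held 5.43, 6.97, 5.25 and 7.98 CPM, and EpCAM- libraries held 6.74, 3.85, 6.89 and 12.4 CPM. The EpCAM+ values lay inside the range of the EpCAM- values. The log2 fold change was -0.22 (SE 0.31, 95% interval -0.90 to 0.47, adjusted p = 0.590), and it turned to 0.13 without EpCAM- replicate 4.

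*Gp1bb*, the disulfide-linked partner of the *Gp1ba* product, at chr16:18620317-18622403 on the - strand, was barely read. EpCAM+ libraries held 0, 1, 1 and 0 counts, and EpCAM- libraries held 0, 0, 0 and 1. In the GENCODE M21 annotation 1938 of its 2087 exonic bases (92.9%) are shared on the same strand with *Sept5*, a septin gene, and with the gene model *Gm49601*. Those genes held 0 to 4 and 0 to 1 counts, so the level of *Gp1bb* is uncertain, and it was not tested. Levels of the receptor's subunits were thus obtained for 3 of its 4 genes.

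**Figure D2:**
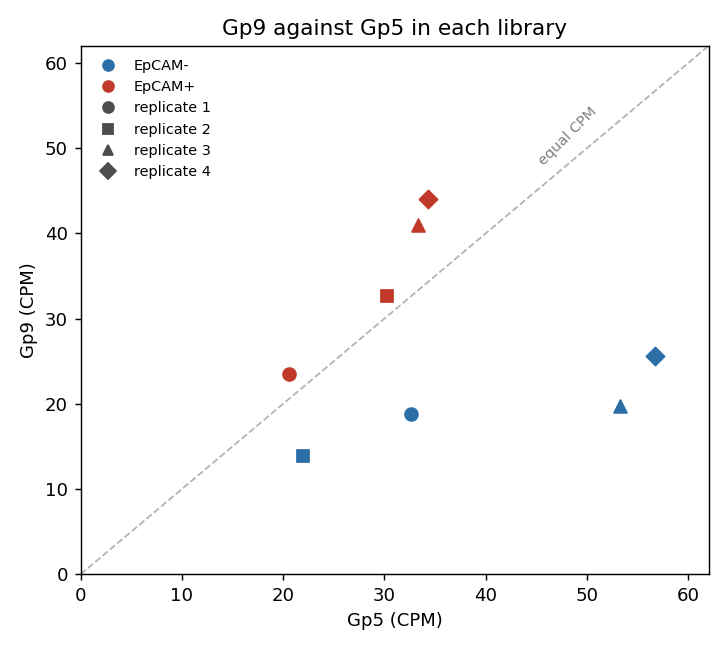
CPM of *Gp9* (vertical axis) against CPM of *Gp5* (horizontal axis) in each library, with colour for the fraction and marker shape for the replicate number. The dashed line marks equal CPM, and the EpCAM+ libraries lie above it and the EpCAM- libraries below it.

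Within single libraries the balance of the 2 subunit genes differed between the fractions. EpCAM+ libraries held 1.14, 1.08, 1.23 and 1.28 *Gp9* counts per *Gp5* count. EpCAM- libraries held 0.576, 0.630, 0.371 and 0.453. The ranges did not overlap, although either gene alone overlapped. *Gp9* counts per *Gp1ba* count were 4.34, 4.68, 7.80 and 5.52 in EpCAM+ libraries and 2.79, 3.60, 2.87 and 2.08 in EpCAM- libraries, again without overlap. These ratios were chosen after the values were seen, so they are given as a description with no test. Other ratios of members overlapped. *Pf4* counts per *Vwf* count ran from 4.38 to 18.99 in EpCAM+ and from 4.564 to 11.27 in EpCAM- libraries. *Pf4* counts per *Ppbp* count (10.92 to 56.98 and 29.67 to 54.78) overlapped too, as did *Treml1* counts per *Vwf* count (0.981 to 1.468 and 0.8971 to 2.128). How often ratios of gene pairs beyond these separate the fractions was not computed, and 40.1% of single tested genes did so.

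*Vwf* encodes von Willebrand factor, the ligand that tethers platelets to the vessel wall, at chr6:125546774-125686679 on the + strand. EpCAM+ libraries held 5.03, 8.96, 8.66 and 10.5 CPM, and EpCAM- libraries held 9.11, 2.89, 10.9 and 12.9 CPM. EpCAM- replicate 2 was the lowest of all 8 libraries and EpCAM- replicate 4 the highest. The log2 fold change was -0.11 (SE 0.38, 95% interval -0.95 to 0.73, adjusted p = 0.834). It took either sign when 1 library was left out, from -0.41 without EpCAM- replicate 2 to 0.11 without EpCAM- replicate 4.

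*Vwf* is also made by endothelial cells, and 6 of the 8 endothelial markers listed failed the filter. These were *Cdh5*, *Cldn5* and *Lyve1*, with 0 to 3 counts in every library, *Stab2* with 0 to 4, *Sele* with 0 to 7 and *Kdr* with 0 to 13. All 6 were named after their values were seen. *Plvap* (log2 fold change -2.12) was lower and *Robo4* (2.04), which stem cells also transcribe, was higher in EpCAM+ cells. The summed level of the 8 markers was 13.6 to 15.8 CPM in EpCAM+ and 14.5 to 23.5 CPM in EpCAM- libraries.

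*Pf4* encodes platelet factor 4, an alpha granule chemokine, at chr5:90772435-90773383 on the + strand. EpCAM+ libraries held 26.4, 39.2, 119.6 and 199.5 CPM, and EpCAM- libraries held 73.2, 13.2, 115.3 and 145.0 CPM. Replicates 3 and 4 were the highest of both fractions, and the lowest libraries were EpCAM+ replicate 1 and EpCAM- replicate 2. The spread within a fraction was large (coefficient of variation 83.5% in EpCAM+ and 66.0% in EpCAM- cells). The log2 fold change was 0.15 (SE 0.70, 95% interval -1.40 to 1.70, adjusted p = 0.880). The interval runs from 0.379-fold to 3.25-fold, so a change within it was not detectable with these libraries. The value turned to -0.49 without EpCAM+ replicate 4 and to -0.22 without EpCAM- replicate 2.

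*Ppbp*, at chr5:90768518-90770063 on the + strand, encodes the precursor of the platelet chemokine that attracts neutrophils, and ends 2371 bases before the start of *Pf4*. EpCAM+ libraries held 2.42, 2.44, 4.64 and 3.50 CPM, and EpCAM- libraries held 1.44, 0.444, 2.73 and 2.65 CPM. EpCAM+ replicates 3 and 4 were above every EpCAM- library, and EpCAM- replicate 2 was the lowest. The log2 fold change was 0.84 (SE 0.45, 95% interval -0.16 to 1.84, adjusted p = 0.158), nearly that of *Gp9* but with a wider interval. Libraries with the same replicate number deviated together, and with that number as a block *Ppbp* was called higher (log2 fold change 0.94, adjusted p = 0.0391). The block also raised the calls among all tested genes, to 3465 higher and 3353 lower from 2961 and 2818. *Ppbp* was higher in EpCAM+ cells in 4 of 4 numbered pairs, whereas *Pf4* was higher in 3 of 4.

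*Treml1*, at chr17:48359916-48367176 on the + strand, encodes a receptor stored in alpha granules that is exposed on activated platelets. EpCAM+ libraries held 7.39, 8.79, 11.1 and 12.1 CPM, and EpCAM- libraries held 13.2, 6.14, 12.8 and 11.6 CPM. The EpCAM+ values lay inside the EpCAM- range. The log2 fold change was -0.15 (SE 0.24, 95% interval -0.69 to 0.39, adjusted p = 0.632).

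*Clec1b*, at chr6:129397297-129409335 on the + strand, was read at 9, 7, 25 and 44 counts in EpCAM+ and at 9, 4, 3 and 6 counts in EpCAM- libraries, and it failed the filter. EpCAM+ replicates 3 and 4 stood above all other libraries. In a fit without that filter its log2 fold change was 1.75 (edgeR adjusted p = 0.0519), and DESeq2, which kept it, gave 1.77 (adjusted p = 0.0346). It shares 184 of its 5103 exonic bases (3.61%) on the same strand with *Clec9a*, a dendritic cell receptor gene that was read at 420, 22, 92 and 405 counts in EpCAM+ and at 9, 0, 0 and 2 counts in EpCAM- libraries. All 4 tested genes of the 6 dendritic markers were called higher in EpCAM+ cells, with a summed level of 14.8 to 200.4 CPM against 0.222 to 4.18 CPM. The part of these shared bases in the *Clec1b* counts was not tested.

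*Gp6*, the collagen receptor gene at chr7:4363965-4397744 on the - strand, held 0 counts in all 8 libraries. A count of 0 allows up to 3 counts, which corresponds to 0.168 to 0.222 CPM, so a level below that was not detectable at this depth. The 2 miRNA gene models within its span, *Gm25349* and *Gm24752*, were also at 0. *Fcer1g*, which encodes the signalling chain that glycoprotein VI needs, was read at 54.9 ± 6.20 CPM in EpCAM+ and at 118.3 ± 15.6 CPM in EpCAM- cells (SD, n = 4) and fell in EpCAM+ cells (log2 fold change -1.11, adjusted p = 0.000181).

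**Figure D3:**
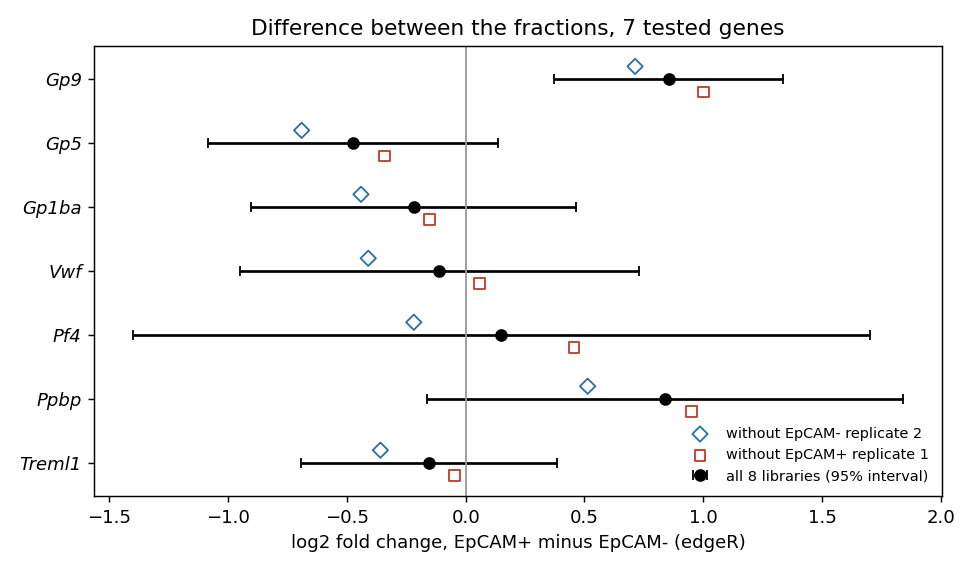
Log2 fold change, EpCAM+ minus EpCAM-, of the 7 tested genes, with black points and 95% intervals from all 8 libraries, blue diamonds without EpCAM- replicate 2 and red squares without EpCAM+ replicate 1. The interval of *Gp9* lies above 0, those of the other genes include 0, and leaving out EpCAM- replicate 2 moved every gene downwards.

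Per kilobase of gene length, the genes differed in level far more than the fractions did. In CPM per kilobase, levels were 133.4 and 120.2 for *Pf4* in EpCAM+ and EpCAM- cells, and 40.1 and 22.2 for *Gp9*. They were 13.5 and 18.7 for *Gp5*, which in EpCAM- cells did not differ from *Gp9* beyond the spread (SD 7.57 and 5.51), and 7.01 and 7.79 for *Treml1*. *Gp1ba* (2.36 and 2.75) and *Ppbp* (3.00 and 1.68) stood close together, and their order in the 2 fractions was opposite, within the spread of the libraries. *Vwf* (0.516 and 0.557) and *Clec1b* (0.257 and 0.0737) followed. In the deposited FPKM *Vwf* stood above both *Gp1ba* and *Ppbp*, at 3.20 and 3.26, because that column implies a shorter gene length for it (2663 bases, against 16064 in the length column). The place of *Vwf* therefore depends on the length used.

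**Figure D4:**
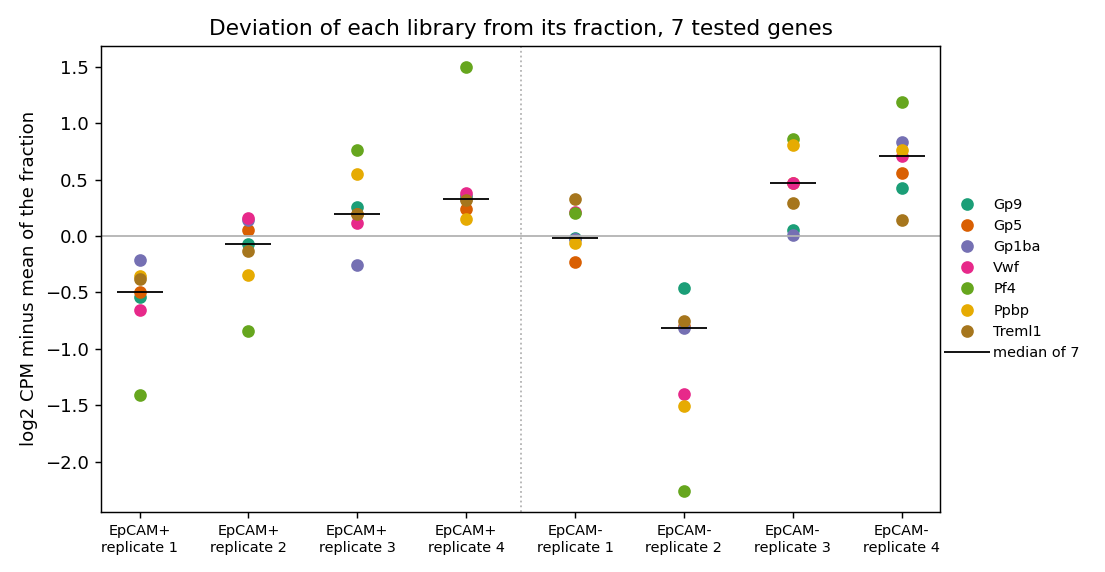
Log2 CPM of the 7 tested genes in each library minus the mean of its fraction, with a black bar at the median of the 7. The medians run from -0.82 in EpCAM- replicate 2 to 0.71 in EpCAM- replicate 4, and *Pf4* has the widest spread.

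The platelet genes varied together among libraries of the same fraction. EpCAM- replicate 2 was the lowest library of its fraction for 7 of 7 tested genes, and EpCAM- replicate 4 the highest for 5. In EpCAM+ cells replicate 1 was the lowest for 6 of the 7 and replicate 4 the highest for 6. The shares of all tested genes with the same lowest and highest libraries were not computed. These counts therefore do not show a trait particular to the platelet genes. The median deviation of the 7 genes from the mean of the fraction was -0.82 on the log2 scale in EpCAM- replicate 2 and -0.49 in EpCAM+ replicate 1, against 0.71 in EpCAM- replicate 4 and 0.33 in EpCAM+ replicate 4. Each of these 4 deviations was larger in size than the log2 fold change between the fractions for at least 4 of the 7 genes. Without EpCAM+ replicate 1 and EpCAM- replicate 2, a choice made after the data were seen, 1 of the 7 genes was again called (*Gp9*, log2 fold change 0.87, adjusted p = 0.00558).

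After the mean of each fraction was subtracted, the log2 CPM of all 21 pairs of these genes were positively correlated over the 8 libraries (median Pearson r 0.859, range 0.639 to 0.932). *Gp9* with *Pf4* (0.932) and *Gp5* with *Vwf* (0.931) were the closest pairs, and *Gp1ba* with *Treml1* (0.639) the least alike. The points share their libraries and depth, no such values were computed for pairs of other genes, and the values are a description. *Gp9* and *Gp5* thus went up and down together among libraries of a fraction, while their ratio, chosen after the values were seen, did not overlap between fractions.

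The tested gene outside this group whose pattern was most like that of each member was named by the same measure over the 8 libraries. For *Gp9* it was *Cavin2* (r = 0.980), a caveolae gene that is abundant in platelets. For *Vwf* it was *Rab27b* (0.989), which encodes a GTPase of granule release. *Gp5* was nearest to *Ubap2* (0.997), *Ppbp* to the integrin gene *Itga5* (0.995), *Treml1* to the DNA helicase gene *Mcm9* (0.988), *Pf4* to *B230377A18Rik* (0.981) and *Gp1ba* to the galactosyltransferase gene *B4galt1* (0.971). *Cavin2* itself did not pass the test between the fractions (log2 fold change 0.01, adjusted p = 0.993), and its counts in replicates 1 to 4 were 83, 228, 363 and 353 in EpCAM+ and 212, 60, 247 and 364 in EpCAM- libraries. The lowest library of each fraction was again EpCAM+ replicate 1 and EpCAM- replicate 2. Each of these genes was picked as the best among all tested genes, so a high r is what the choice gives.

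Other genes of the megakaryocyte programme differed in both directions. Of 57 further genes in 3 lists, 49 were tested, 24 rose and 5 fell in EpCAM+ cells, beside the 21.8% and 20.8% of all tested genes given above. Their median log2 fold change was 0.28, beside 0.02 for all tested genes. Without EpCAM+ replicate 1 and EpCAM- replicate 2, 18 rose and 5 fell. Over all tested genes that fit called 2331 higher and 2457 lower, against 2961 and 2818 with all libraries. With the replicate number as a block, 28 of the 49 rose and 5 fell, beside 3465 and 3353 of all tested genes.

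**Figure D5:**
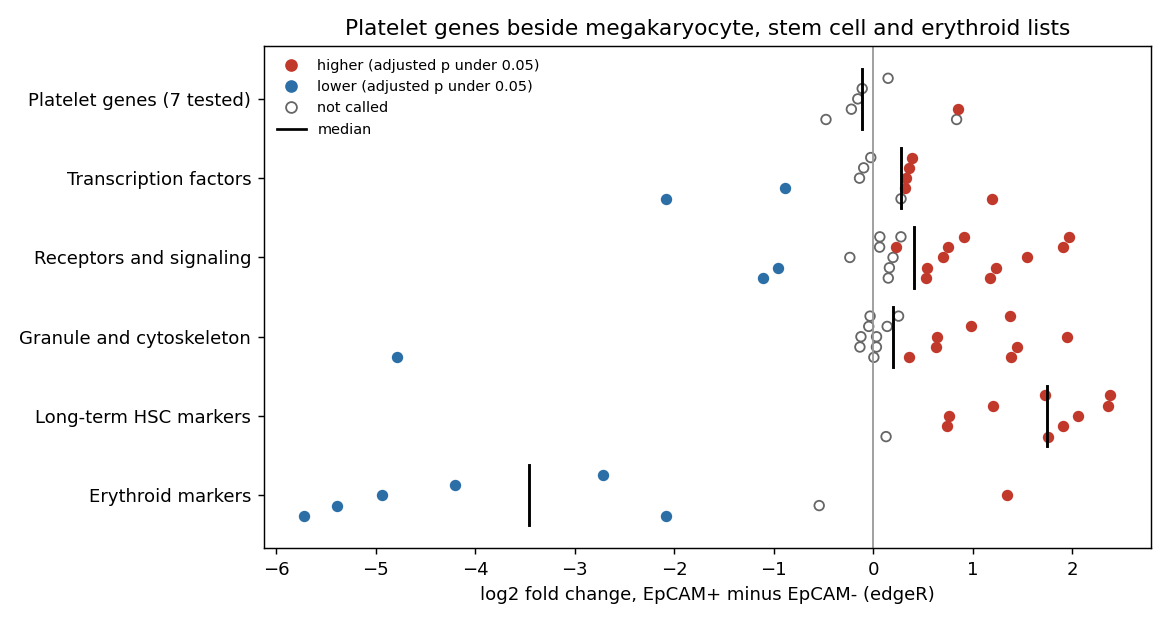
Log2 fold change, EpCAM+ minus EpCAM-, of each tested gene in 6 lists, filled red where higher and blue where lower at an adjusted p under 0.05, with a bar at the list's median. The medians of the 3 megakaryocyte lists (0.28, 0.41 and 0.20) lie between those of the long-term HSC markers (1.74) and the erythroid markers (-3.46), and 6 of the 7 platelet genes are open symbols.

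Of 11 transcription factors of the lineage, all tested, 5 rose, 2 fell and 4 did not pass the test (median 0.28). Only 3 rose when any 1 of EpCAM+ replicate 3 and EpCAM- replicates 2, 3 and 4 was left out. *Meis1*, a homeobox factor of stem cells and megakaryocytes, was read at 247.3 ± 24.3 CPM in EpCAM+ and 108.0 ± 21.3 CPM in EpCAM- cells (SD, n = 4, 2.29-fold, adjusted p = 0.000211). *Gata1*, the GATA factor that megakaryocytes and erythroid cells need, was read at 42.1 ± 8.10 and 178.5 ± 73.1 CPM and fell (log2 fold change -2.08, SE 0.27, adjusted p = 0.000397). *Gfi1b*, which encodes a transcriptional repressor that acts within both lineages, also fell (-0.89, SE 0.18, adjusted p = 0.00323). Among EpCAM- libraries *Gata1* held 125.1, 112, 210.1 and 266.7 CPM in replicates 1 to 4. Its lowest and highest libraries were those of *Gp9*, *Gp5*, *Gp1ba*, *Vwf* and *Pf4*, and also those of the erythroid genes *Klf1* and *Epor*. *Treml1* and *Ppbp* were highest in EpCAM- replicates 1 and 3. A link between *Gata1* and the platelet genes was not tested.

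Of 23 receptor and signalling genes, 20 were tested, 11 rose, 2 fell and 7 did not pass the test (median 0.41). Only 1 fell when any 1 of EpCAM+ replicates 1 and 3 and EpCAM- replicates 3 and 4 was left out. *Pear1*, a platelet adhesion receptor, rose from 24.5 ± 4.82 CPM in EpCAM- to 55.3 ± 4.97 CPM in EpCAM+ cells (log2 fold change 1.17, adjusted p = 0.00025), and the tetraspanin gene *Cd9* rose by 0.75 (adjusted p = 0.000223). *Fcer1g*, given above with *Gp6*, was the gene of this list with the smallest adjusted p. *Itga2b*, which encodes the CD41 chain of the fibrinogen receptor and was named after its values were seen, held 94.4 ± 16.6 and 85.0 ± 21.7 CPM (log2 fold change 0.15, adjusted p = 0.546).

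Of 23 granule, cytoskeleton and eicosanoid genes, 18 were tested, 8 rose, 1 fell and 9 did not pass the test (median 0.20). *Tbxas1*, thromboxane synthase, rose by 1.37 (adjusted p = 0.000256) and *Gng11*, a G protein subunit gene, by 1.44 (adjusted p = 0.000572) on the log2 scale. The 1 that fell was *F13a1*, the coagulation factor XIII A chain that monocytes also make, read at 2.08 ± 0.806 CPM in EpCAM+ and 57.9 ± 20.2 CPM in EpCAM- cells (log2 fold change -4.79, adjusted p = 4.21e-05). The 5 genes that failed the filter here included *Tubb1*, the platelet tubulin, with 1 to 14 counts per library, and *Alox12*, with 1 to 16. The others were *Thbs1*, thrombospondin, with 0 to 11, *Myl9*, myosin light chain, with 0 to 2, and *Mmrn1*, multimerin, at 0 in every library. These 5 were named after their values were seen. The 18 tested genes of the same list passed the filter, among them *Gng11* with 140 to 801 counts and *Cavin2* with 60 to 364.

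Markers of other cells differed strongly between the fractions and are given beside the platelet genes. Of 10 long-term stem cell markers, 9 rose and 1 did not pass the test (median 1.74), among them *Hlf* (log2 fold change 1.91), *Mecom* (2.38) and *Fgd5* (2.06). Between 6 and 8 rose when 1 library was left out, and *Mecom* moved to 3.00 without EpCAM- replicate 1. Their summed level was 276.6 to 396.7 CPM in EpCAM+ and 109.7 to 168.2 CPM in EpCAM- libraries. Of 9 erythroid markers, 8 were tested, 1 rose and 6 fell (median -3.46), among them *Klf1* (-4.21) and *Epor* (-2.72), with sums of 52.8 to 246.7 CPM and 1997 to 6883 CPM. The part of either change in the levels of the platelet genes was not tested.

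The remaining lists were smaller. Of 7 B cell and plasma cell markers, 5 were tested and 4 rose, with sums of 224.4 to 3650 CPM and 4.63 to 9.18 CPM. *Jchain* held 3069 to 53916 counts in EpCAM+ and 0 to 4 in EpCAM- libraries, *Mzb1* 98 to 754 and 2 to 6, and *Ms4a1* 21 to 196 and 0 to 2, and EpCAM+ replicate 1 was the highest for all 3. The fitted log2 fold change of *Jchain* moved from 12.87 to 10.91 without that library, of *Mzb1* from 6.03 to 4.68 and of *Ms4a1* from 7.10 to 6.38. The dendritic genes with the smallest adjusted p were *Xcr1*, with 202 to 2251 counts in EpCAM+ and 2 to 13 in EpCAM- libraries, *Clec9a*, given above, and *Ccr9*, with 16 to 76 and 0 to 6 counts. Of 7 neutrophil and monocyte markers, 6 were tested and 3 fell (*Mpo* -3.74, *Csf1r* -3.71 and *Elane* -4.86), with sums of 807.9 to 1367 CPM and 10070 to 16460 CPM. Of 5 mast cell and basophil markers, 4 were tested and 3 fell (*Cpa3* -2.27, *Gzmb* -3.27 and *Mcpt8* -1.82), with sums of 66.0 to 83.8 CPM and 218.7 to 477.8 CPM. Of 7 multipotent and lymphoid-primed markers, 6 were tested, *Flt3* rose (0.88), *Satb1* fell (-0.52) and *Cd34* did not pass the test (0.28). *Cd34* was called higher with the replicate block (0.29, adjusted p = 0.0485) and without EpCAM- replicate 2 (0.36, adjusted p = 0.0494). Of 5 T cell markers only *Cd4* was tested, and it rose (1.01, adjusted p = 0.0404), but not when any 1 of EpCAM+ replicates 2 to 4 and EpCAM- replicates 1, 3 and 4 was left out (adjusted p = 0.0502 to 0.123). *Cd3e* held 0 to 1 counts, and the sums of the T cell list were 1.87 to 3.52 CPM and 0.751 to 1.63 CPM.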

How the data were processed

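Counts, FPKM and the authors' log2 fold changes and p-values were in 1 deposited table. According to the submitters' processing notes and the study's methods, the authors aligned reads to GRCm38.p6 with STAR 2.6.1d, counted whole reads per gene with featureCounts 1.5.0-p3 and compared the fractions with DESeq2 1.20.0. Which annotation release was used, whether counting used strand and how reads shared by genes were handled is not given in the sources used here. The raw counts deposited by the authors were used for all tests, and the authors' FPKM for the order of levels alone. The deposited log2 fold changes and p-values are the authors' own comparisons and were not used.

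Samples were grouped by fraction as in the labels, EpCAM+ against EpCAM-, n = 4 each. In R 4.3.3, edgeR 4.0.16 (filterByExpr, TMM, two-sided quasi-likelihood test, Benjamini-Hochberg adjustment over all 13560 tested genes, threshold 0.05) gave the calls, CPM were set on TMM-scaled totals, and log2 CPM used a prior count of 2. The 95% intervals were derived from the F statistic. Counting limits (3 counts for a 0, 0.168 to 0.222 CPM) cover counting error only, since reads carried no molecular identifiers. Alternatives were DESeq2 1.42.0, limma-trend (limma 3.58.1), other scalings and filters, the replicate number as a block, protein-coding genes alone, and each library left out. The procedure was also run on simulated counts that had no pairs and far fewer changed genes than were called here. That run therefore does not check the scaling or the unpaired test for these data. Figures used Python 3.11.15 and matplotlib 3.10.9.

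Genes named were the 10 members, up to 3 genes of each list with the smallest adjusted p, the gate genes, the nearest gene of each member and genes overlapping a member. Some genes that this rule names are not reported here. Others are marked where named. *Epcam* was added as a check of the sort, and *Zeb1* as the targeted gene, whose total does not check the deletion. The members and lists were chosen with earlier results of these data known. Same-numbered libraries deviated together, though the labels do not say what the numbers share. Deviations from the means of the fractions correlated at 0.205 to 0.356 across genes in the 4 same-numbered pairs. In the 12 other pairs they correlated at -0.216 to 0.0396. Centring on the mean of each fraction pushes these other values downwards where same-numbered ones are positive, so part of that contrast is built in. No 2 libraries of a fraction were duplicates (chi-square per degree of freedom 10.2 to 96.9). Overlaps came from GENCODE M21 and promoters from RefSeq.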

Additional observations from a re-analysis of the deposited data

Results flagged for a closer look

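None of the 8 members checked had a library far from the others of its fraction. Of 90 groups of 4 libraries checked, which covered these 8 members, 35 other named genes, the ratio of *Gp9* to *Gp5* and the total counts, 6 held such a library by Dixon's test, and chance flags about 1 in 20. *Jchain* stood at 3520 CPM in EpCAM+ replicate 1 (nearest library 429) and *Mzb1* at 49.3 CPM in the same library (nearest 8.16). *Klf1* stood at 26.5 CPM in EpCAM+ replicate 4 (nearest 13.1) and *Hlf* at 165 CPM in EpCAM+ replicate 3 (nearest 112). *Cd4* stood at 1.63 CPM in EpCAM- replicate 2 (nearest 0.809) and *Ms4a1* at 0.137 CPM in EpCAM- replicate 3, where the other 3 libraries held 0.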

How the results depend on the processing

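The number of platelet genes called was 1 in the analysis reported and in all alternatives but 3. It was 2 with DESeq2 (which added *Clec1b*), 2 with the replicate number as a block (which added *Ppbp*) and 2 without EpCAM- replicate 2 (which added *Gp5*). It thus ranged from 1 to 2 when single libraries were left out. DESeq2 tested 8 members, against 7 in the analysis reported. Among all genes, DESeq2 called 3280 higher and 3175 lower, and the replicate block 3465 and 3353. Without EpCAM- replicate 2 the calls were 2799 and 2823, against 2961 and 2818 in the analysis reported. Whether the added members go beyond these general shifts in calls was not tested. *Gp9* was called higher in all the alternatives. Fold changes took the other sign for *Vwf* with limma-trend (0.033), without EpCAM+ replicate 1 (0.06) and without EpCAM- replicate 4 (0.11), for *Pf4* without EpCAM+ replicate 4 (-0.49) and without EpCAM- replicate 2 (-0.22), and for *Gp1ba* without EpCAM- replicate 4 (0.13), and the cause was not tested. Over all fits without 1 library, log2 fold changes ran from -0.41 to 0.11 for *Vwf*, from -0.49 to 0.51 for *Pf4* and from -0.44 to 0.13 for *Gp1ba*. The replicate block changed no other call of a member. Upper quartile scaling and library totals moved the median of all genes to 0.11 on the log2 scale, beside 0.02 with TMM, and no member changed call or direction under them. The shares of all called genes that were higher moved from 51.2% with TMM to 63.6% and 62.7% under these scalings. *Gp1bb*, *Gp6* and *Clec1b* were below the count filter, and *Gp6* had no read at this depth.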
